A study of Homo sapiens with 6 samples.

Results

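The genes described here are the 38 human genes of the core machinery of translation initiation and elongation. They were taken by symbol from a list ordered by role: the scanning factors, eIF2, eIF2B, eIF3, the eIF4 factors, the subunit joining factors and the elongation factors. The rule uses their symbols and no difference between the groups. All 38 symbols were found among 63677 gene rows, and 37 of them passed the filter on low counts and were tested among 15949 genes. EEF1G did not pass. RNA came from RPMI-8402, an established line of T-cell acute lymphoblastic leukaemia that expressed Cas9 stably in both groups and was grown with serum free of tetracycline. The controls received DMSO (genotype label: control). The other group received doxycycline (DOX; genotype label: MYCN_knockout) for 72 hours to switch on guide RNAs. The series text names MYC and MYCN as the targets, while the treatment text names MYC alone. Each group has 3 libraries, named by the number in their count columns: DMSO 11, 23 and 35, and DOX 12, 24 and 36. Whether the cells were 1 clone or a pool, and whether libraries of a group were separate cultures, is not stated, so the p-values refer to variation among these libraries only, part of which may be technical. Effects of doxycycline itself and of the guides cannot be told apart here, because no library of drug-treated cells lacking guides was analysed. In bulk RNA, a change in the mix of cells and a change per cell cannot be told apart either.

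Translation begins when eIF2 brings the initiator tRNA to the small ribosomal subunit, where eIF3, EIF1 and EIF1AX hold the complex open for scanning. The eIF4 factors bind the cap and unwind the leader, EIF5 triggers GTP hydrolysis at the start codon, and EIF5B joins the large subunit. The exchange factor eIF2B reloads eIF2 with GTP and is the step blocked when eIF2 is phosphorylated under stress. In elongation, EEF1A1 delivers aminoacyl tRNAs, the eEF1B subunits recharge it with GTP, EEF2 moves the ribosome along the message and EIF5A eases peptide bond formation at difficult sequences. MYC family proteins are known activators of growth and of several initiation factor genes, and they bind DNA at the E-box with the partner MAX.

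The RNA levels of the targeted genes were looked at first. They do not show whether the guides cut the genes, and these data measure neither editing nor protein. Levels are given as CPM, counts scaled to a common library size. MYCN stood at 76.8, 109.5 and 86.9 CPM in DMSO 11, 23 and 35 and at 46.2, 50.05 and 53.7 CPM in DOX 12, 24 and 36. MYC stood at 279, 201 and 256 CPM in DMSO and at 206, 200.5 and 193 CPM in DOX. The MYCN groups did not overlap and the MYC groups did, and neither gene passed the edgeR quasi-likelihood test (adjusted p = 0.0726 and 0.176). Without DMSO 11, described next, edgeR called MYCN (log2 fold change -0.98, adjusted p = 2.26e-07) and did not call MYC (-0.20, adjusted p = 0.0566). DESeq2 called MYCN lower (log2 fold change -0.87 ± 0.13 in edgeR, DESeq2 adjusted p = 8.05e-06) and did not call MYC (DESeq2 adjusted p = 0.149). Totals ran from 28602145 to 29204148 counts per library. DMSO 11 stood apart from the other controls. Over genes with more than 20 counts in a pair of libraries, its distance from DMSO 23 and DMSO 35, as the mean chi-square per gene, came to 82.7 and 72.1. Its distances from the DOX libraries were 11.3 to 15.9, and DMSO 23 and 35 were 13.7 apart. Results are therefore given with and without it. DMSO 11 was singled out from these same counts, so p-values without it describe the data and are no independent test. Leaving out the control nearest DOX also favours larger differences. The fit without it sets DOX against DMSO 23 and 35 only. There, an effect of treatment cannot be told apart from whatever sets those controls apart from DMSO 11. Of 8 T-cell markers, 7 had a mean of at least 10 CPM, with PTCRA under it. All 4 B-cell markers, all 5 myeloid markers and 3 of 4 fibroblast or epithelial markers stayed under 3 CPM. The summed CPM of the last list was 2.87 to 7.11 in DMSO and 9.46 to 10.4 in DOX, with DMSO 11 highest among the controls. COL1A1 alone held 2.44 to 7.11 CPM in DMSO and 9.18 to 9.70 CPM in DOX, and KRT8 added 1.08 CPM in DMSO 23; the list's part in the results was not tested.

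Across the 37 tested translation factors, most relative transcript levels in DOX lay close to those in DMSO, with no common direction. CPM give the share of a gene among the counts of its library. The spike-in rows held 0 counts, so a change in total RNA per cell was not measured and would not show here. The median log2 fold change was -0.02, from -0.63 for EIF1 to 0.43 for EIF4A1, and 17 genes had a positive and 20 a negative value. Over all genes tested the median was -0.0031. For 29 of the 37 genes the 95% interval of the edgeR fold change lay within a 1.5-fold change in either direction, and for 36 within 2-fold, all but EIF1. The first share is 78.4%, beside 49.8% of all genes tested, and within 2-fold it was 12419 of 15949 genes. Interval width depends on the count level of a gene, and these shares were not matched for it. Summed over the 38 genes, translation factors took 2.55%, 2.67% and 2.43% of all counts in DMSO 11, 23 and 35, and 2.34%, 2.46% and 2.42% in DOX 12, 24 and 36. The ranges of the groups overlap, and EEF1A1 alone supplied 1.06% to 1.23% of the counts of each library.

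EdgeR called 0 translation factors at an adjusted p under 0.05 (quasi-likelihood F test), where 0.0125% of genes were called higher and 0.0188% lower. At an unadjusted p under 0.05, 8 were lower and 1 was higher, that is 21.6% and 2.7%, beside 14.8% and 11.2% of all genes. DESeq2 called EIF1, EIF2B3, EIF3M and EIF6 lower and 0 higher, where it called 6.89% of genes lower and 3.08% higher. In the authors' deposited table the same 4 genes have adjusted p-values of 0.0462, 0.0309, 0.0382 and 0.0435, and that table has 6.61% of genes lower and 2.96% higher at the same threshold. Given only the genes that pass the edgeR filter, DESeq2 called 3 of them, without EIF1. In 9 genes the 3 DOX libraries lay below the 3 DMSO libraries, in 2 above, and in 26 the groups overlapped; over all genes tested, 15.6% lay below and 14.6% above. The 9 were EIF1AX, EIF2S3, EIF2B3, EIF3D, EIF3J, EIF3M, EIF5, EIF6 and EEF1B2, and the 2 were EIF3L and EIF4A1. The smallest p that an exact two-sided permutation test can give with 3 libraries against 3 is 0.1. Any gene whose groups do not overlap gives this value, so for those 11 genes it adds nothing to the separation itself.

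**Figure D1:**
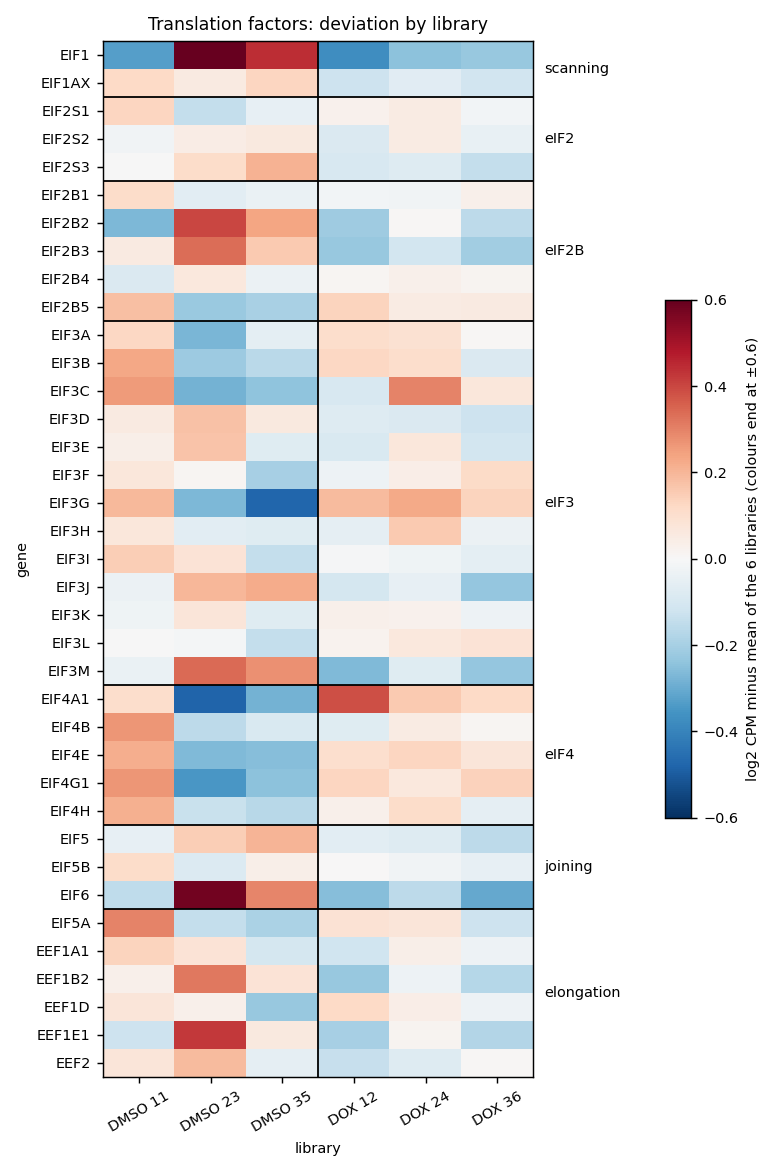
Log2 CPM of each of the 37 tested translation factors (rows, grouped by role) in each library (columns), minus the gene's mean over the 6 libraries; red is higher, blue lower. DMSO 23 and DMSO 35 differ from DMSO 11 in opposite directions for EIF1 and EIF6 (higher) and for the eIF4 genes (lower), and for EIF1, EIF6, EIF4A1, EIF4E and EIF4G1 each DOX column lies on the same side of 0 as DMSO 11. Colours end at ±0.6.

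Without DMSO 11, edgeR called 21 translation factors, 9 higher and 12 lower in DOX, in a fit that called 23.7% of all genes higher and 25.7% lower. These shares of the 37 genes were 24.3% and 32.4%. Of the 21, 10 also had groups that did not overlap over all 6 libraries. The other 11 (EIF1, EIF2B2, EIF2B5, EIF3A, EIF3B, EIF3C, EIF3G, EIF4E, EIF4G1, EIF4H and EEF1E1) overlapped through DMSO 11: both other controls lay on 1 side of the DOX range, and DMSO 11 lay within it or past its other end. DMSO 11 was the control nearest the DOX mean in 24 of the 37 genes (64.9%), beside 58.8% of all genes.

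The direction was counted for each set of controls. Set against the single library DMSO 11, 30 of 37 translation factors had a lower DOX mean (81.1%), with a median difference of -0.11 in log2 CPM, while over all genes 50.5% were lower and the median was -0.0028. Against the mean of DMSO 23 and DMSO 35 it was lower in 18 of 37 (48.6%, beside 50.7% of all genes), with a median of 0.0044. Single differences were larger against DMSO 23 and 35, with a median size of 0.21 in log2 CPM against 0.11. The same held over all genes tested, at 0.29 against 0.15. These are comparisons with 1 or 2 libraries and carry no test.

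**Figure D2:**
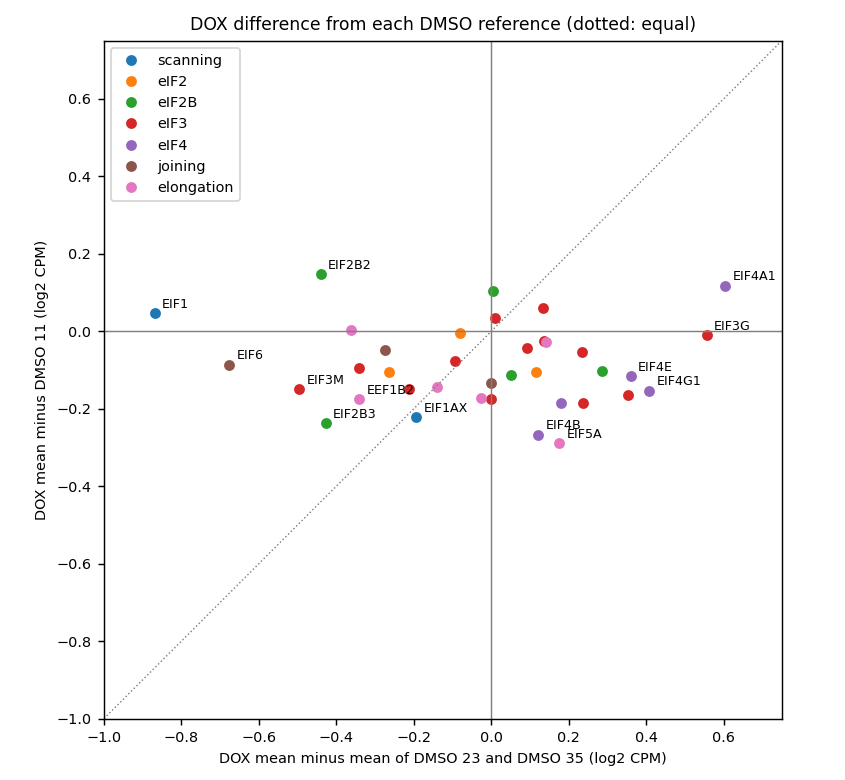
Difference of the DOX mean from DMSO 11 (vertical, log2 CPM) against its difference from the mean of DMSO 23 and DMSO 35 (horizontal, log2 CPM), 1 point per gene, coloured by role. The points spread from -0.87 to 0.60 horizontally and lie mostly just below 0 vertically, so 30 of 37 genes were lower in DOX than in DMSO 11.

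Among the scanning factors, EIF1 (ENSG00000173812, chromosome 17), which guards the choice of the start codon, showed the largest difference of all 37. It stood at 797, 1663 and 1360.1 CPM in DMSO 11, 23 and 35 and at 774, 844 and 855 CPM in DOX 12, 24 and 36. DMSO 11 fell inside the DOX range, and the other controls lay far above it. The log2 fold change was -0.63 ± 0.23 (SE), with an edgeR adjusted p of 0.146 over all libraries and 8.89e-08 without DMSO 11 (log2 fold change -0.88). Without DMSO 23 the log2 fold change was -0.39. EIF1AX, the partner that keeps the scanning complex open, behaved differently: its DMSO values of 244, 233 and 245 CPM were close together, and all lay above the DOX values of 206, 214 and 207 CPM. Its log2 fold change was -0.20 ± 0.08 with all libraries and -0.20 without DMSO 11, and the edgeR adjusted p changed from 0.155 to 0.0145.

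The eIF2 genes encode the carrier of the initiator tRNA, and their differences were small. EIF2S3, the GTP-binding subunit, stood at 585, 631 and 675 CPM in DMSO and at 546, 554 and 529.9 CPM in DOX. The groups did not overlap, by a margin narrower than the spread among the controls (log2 fold change -0.21 ± 0.09, edgeR adjusted p = 0.194). EIF2S1, the subunit phosphorylated under stress, was at 0.04 ± 0.09 and EIF2S2 at -0.05 ± 0.08, both with overlapping groups.

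The 5 subunits of eIF2B did not move together. EIF2B3 (ENSG00000070785, chromosome 1), a subunit of the catalytic part, stood at 39.5, 48.0 and 42.5 CPM in DMSO and at 32.5, 35.3 and 32.9 CPM in DOX. Every DOX library lay below every control, and DESeq2 called the difference (log2 fold change -0.37 ± 0.10, DESeq2 adjusted p = 0.0302, edgeR adjusted p = 0.0984). EIF2B5, the catalytic subunit and the most abundant of the 5 per kilobase of the longest transcript (EIF2B1 is higher with the median length), stood at 135, 102 and 104 CPM in DMSO and at 131, 123 and 124 CPM in DOX, so DMSO 11 was the highest of all libraries. Its log2 fold change was 0.15 ± 0.12, and 0.29 without DMSO 11, where edgeR called it (adjusted p = 0.000897); without DMSO 23 or DMSO 35 it was 0.07 or 0.08. EIF2B2 was at -0.27 ± 0.17, with DMSO 11 lowest at 18.4 CPM against 29.3 and 26.2 CPM in the other controls. EIF2B1 (-0.01 ± 0.08) and EIF2B4 (0.04 ± 0.08) were near 0.

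The eIF3 complex is the scaffold on which the initiation complex assembles, and its 13 genes had fold changes on both sides of 0, with a median of 0.05. EIF3M (ENSG00000149100, chromosome 11), a subunit of its structural core, stood at 203, 264 and 252 CPM in DMSO and at 174, 199 and 178 CPM in DOX. The groups were separated only by the 203 CPM of DMSO 11 and the 199 CPM of DOX 24 (log2 fold change -0.39 ± 0.12, DESeq2 adjusted p = 0.0373, edgeR adjusted p = 0.110). EIF3J, a loosely bound subunit, and EIF3D, which can itself bind the cap of some messages, were also below the controls in each DOX library, at -0.26 ± 0.10 and -0.19 ± 0.08 on the log2 scale. In the other direction, EIF3G, an RNA-binding subunit, stood at 175, 127 and 110.0 CPM in DMSO and at 175, 179 and 168 CPM in DOX. DMSO 11 lay among the DOX libraries, and the fold change was 0.34 ± 0.16 with it (edgeR adjusted p = 0.209) and 0.55 without it (edgeR adjusted p = 2.6e-06), and 0.20 without DMSO 35. EIF3L was higher in every DOX library, at 494, 508 and 515 CPM against control values of 485, 482 and 440.3 CPM, a log2 fold change of 0.11 ± 0.09 that edgeR called neither with nor without DMSO 11. In GENCODE 29, 41.1% of the exonic bases of EIF3L are also exons of another gene on the same strand.

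EIF3C, a core subunit, stood at 14.6, 10.1 and 10.3 CPM in DMSO and at 11.5, 15.1 and 12.8 CPM in DOX. DMSO 11 again lay among the DOX libraries (log2 fold change 0.17 ± 0.17, and from 0.06 without DOX 24 to 0.36 without DMSO 11). The remaining eIF3 genes also had overlapping groups. EIF3E, the most abundant eIF3 transcript per kilobase, stood at 441, 485 and 410.0 CPM in DMSO and at 405, 453 and 399 CPM in DOX (log2 fold change -0.09 ± 0.10). EIF3A, the largest subunit, was at 0.13 ± 0.12 and EIF3B, its partner in the core, at 0.09 ± 0.14, and both were highest in DMSO 11. EIF3F, EIF3H, EIF3I and EIF3K lay between -0.06 and 0.08.

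**Figure D3:**
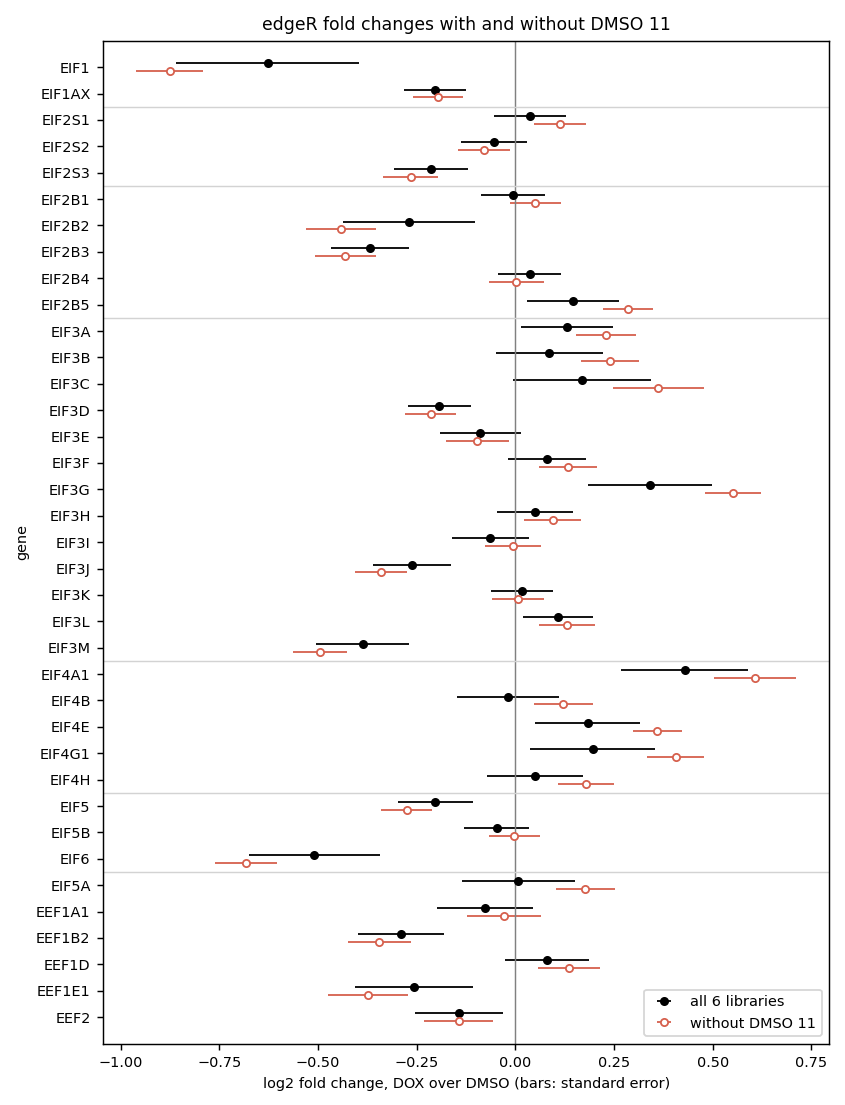
EdgeR log2 fold change of DOX over DMSO for each tested translation factor (horizontal; bars are standard errors), over all 6 libraries (filled) and without DMSO 11 (open). Leaving out DMSO 11 moved EIF1 from -0.63 to -0.88 and EIF4G1 from 0.20 to 0.41, while EIF1AX stayed at -0.20.

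The eIF4 genes, which act at the cap, were the role group in which DMSO 11 lay highest. Each of the 5 was higher in DMSO 11 than in the mean of DMSO 23 and DMSO 35, by a median of 0.48 in log2 CPM, and each DOX mean was also above that mean. EIF4G1, the scaffold that links cap, helicase and eIF3, stood at 881, 576 and 619.7 CPM in DMSO and at 803, 767 and 808 CPM in DOX. EIF4E, the cap-binding protein, stood at 166, 119 and 119.9 CPM in DMSO and at 153, 157 and 150.4 CPM in DOX. In both genes DMSO 11 was the highest library and the other controls were the lowest, with all DOX libraries in between. The log2 fold changes were 0.20 ± 0.16 and 0.18 ± 0.13 over all libraries (edgeR adjusted p = 0.443 and 0.393), and 0.41 and 0.36 without DMSO 11 (adjusted p = 0.000115 and 8.37e-05). Without DMSO 23 they were 0.08 and 0.10, and without DMSO 35 they were 0.12 and 0.10, none of them called.

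EIF4B, which stimulates the helicase, stood at 1395, 1042 and 1089 CPM in DMSO and at 1104, 1203 and 1172 CPM in DOX, a log2 fold change of -0.02 ± 0.13 whose sign changed to 0.12 without DMSO 11 and to 0.01 with upper quartile scaling. EIF4H, a related helper of the helicase, was at 0.05 ± 0.12. EIF4A1, the helicase itself, stood at 18.2, 12.1 and 13.9 CPM in DMSO and at 22.2, 18.9 and 18.4 CPM in DOX. Its groups were separated by 18.2 CPM in DMSO 11 against 18.4 CPM in DOX 36 (log2 fold change 0.43 ± 0.16, edgeR adjusted p = 0.150). Its level is uncertain for a reason of counting given with the levels per kilobase.

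The letters of the E-box, CACGTG (the same on both strands), were searched in the RefSeq promoter windows, which run from 250 bases before to 50 after an annotated start (GRCh38.p14). Of the 38 genes, 31 had at least 1 window, and 7 of these 31 held the letters. Counted by window, it was 7 of 42 (16.7%), beside 7.26% of the 35116 windows of all genes. The latter share covers genes whether expressed here or not and was not matched for base content. The 7 are shown because this is the sequence that MYC and MAX are known to bind, and 4 of them are eIF4 genes. EIF4E and EIF4G1 hold 2 matches each, so their 250 bases before the start are printed; for the others up to 40 bases around the match are given, 5′ to 3′, with the match in capitals.
EIF4E, chr4:98929134-98929383, minus strand: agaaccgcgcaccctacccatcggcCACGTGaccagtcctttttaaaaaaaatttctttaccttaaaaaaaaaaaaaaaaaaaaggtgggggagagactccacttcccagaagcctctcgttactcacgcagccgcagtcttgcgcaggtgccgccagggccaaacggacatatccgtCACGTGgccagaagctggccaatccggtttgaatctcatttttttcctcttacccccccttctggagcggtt
EIF4G1, chr3:184314356-184314605, plus strand: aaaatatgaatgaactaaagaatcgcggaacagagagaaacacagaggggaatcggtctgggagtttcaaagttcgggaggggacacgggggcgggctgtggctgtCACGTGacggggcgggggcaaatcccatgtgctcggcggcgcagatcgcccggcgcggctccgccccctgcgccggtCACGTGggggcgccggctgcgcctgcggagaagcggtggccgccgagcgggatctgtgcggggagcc
EIF4B, chr12:53006417-53006455, plus strand: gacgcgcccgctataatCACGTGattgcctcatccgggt
EIF4H, chr7:74174140-74174179, plus strand: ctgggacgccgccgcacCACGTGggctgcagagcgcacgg
EIF2B3, chr1:44986752-44986791, minus strand: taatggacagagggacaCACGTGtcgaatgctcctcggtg
EIF3F, chr11:7987252-7987291, plus strand: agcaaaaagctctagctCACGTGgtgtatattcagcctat
EIF3K, chr19:38619068-38619107, plus strand: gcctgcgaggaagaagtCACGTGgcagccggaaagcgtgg
The matches start at -225 and -72 in EIF4E, at -144 and -67 in EIF4G1, at -22 in EIF4B, -199 in EIF4H, -179 in EIF2B3, -68 in EIF3F and -103 in EIF3K, where -1 is the base before the start. All 7 genes were tested, and their log2 fold changes ran from -0.37 for EIF2B3 to 0.20 for EIF4G1, with a median of 0.05 (0.13 without DMSO 11), 5 positive and 2 negative. The 23 other tested genes with a window had a median of -0.14 (-0.14 without DMSO 11) and a range of -0.63 to 0.43. Because 4 of the 7 are eIF4 genes, the letters and the role group cannot be told apart in this difference, which was not tested. A match is a description of the letters, and binding was not measured.

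**Figure D4:**
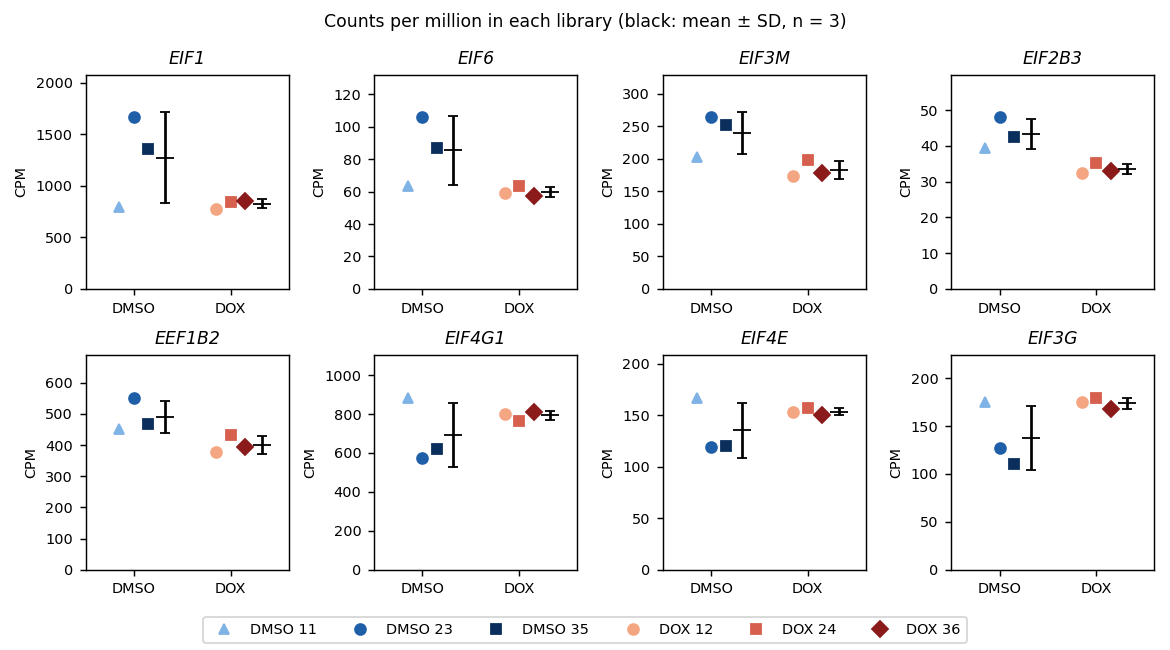
CPM in each library (points; triangles mark DMSO 11) with the group mean and SD (black, n = 3) for 8 translation factors. In EIF1, EIF6, EIF4G1, EIF4E and EIF3G the triangle lies nearer the DOX points than the other controls do, and in EIF2B3, EIF3M, EIF6 and EEF1B2 each DOX point lies below each control.

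Of the factors that act at the start codon and in subunit joining, EIF6 differed most. EIF6 keeps the large ribosomal subunit from joining early and is needed to make that subunit. The gene (ENSG00000242372, chromosome 20) stood at 63.6, 106 and 86.7 CPM in DMSO and at 59.2, 63.4 and 57.2 CPM in DOX. DMSO 11 and DOX 24 were almost equal, and the other controls were well above (log2 fold change -0.51 ± 0.17, DESeq2 adjusted p = 0.0426, edgeR adjusted p = 0.121). The log2 fold change was -0.68 without DMSO 11, where edgeR called it (adjusted p = 8.77e-07), and -0.33 without DMSO 23. EIF5, the GTPase activator of eIF2, was below the controls in each DOX library by a small margin (-0.20 ± 0.10): the lowest control, DMSO 11, held 267 CPM, and the highest DOX library held 265 CPM. EIF5B, the joining GTPase, was at -0.05 ± 0.08.

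Among the 6 tested elongation genes the median log2 fold change was -0.11. EEF1A1, the most abundant of all translation factors, stood at 12538, 12098 and 10617 CPM in DMSO and at 10519.9, 11705 and 11189.9 CPM in DOX. The groups overlapped (log2 fold change -0.08 ± 0.12), as did those of the translocase EEF2, at -0.14 ± 0.11. EEF1B2, the subunit that exchanges the nucleotide of EEF1A1, stood at 452, 550.4 and 468 CPM in DMSO and at 378, 433 and 392 CPM in DOX. Every DOX library was below every control (log2 fold change -0.29 ± 0.11, edgeR adjusted p = 0.151, and -0.34 with an adjusted p of 0.00134 without DMSO 11). EEF1D, another subunit of that exchange complex, was at 0.08 ± 0.11, and EEF1E1, which belongs to the complex of tRNA synthetases, at -0.26 ± 0.15. EIF5A was at 0.01 ± 0.14, with DMSO 11 highest at 517 CPM and the other controls at 381 and 368 CPM.

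Many elongation factor messages begin with a C followed by a run of pyrimidines (the terminal oligopyrimidine start), through which growth signals are known to act on their translation. Of the 31 genes with a window, 9 had an annotated start at a C followed by at least 4 C or T bases, and 9 of their 42 windows did so (21.4%), beside 4.07% of all windows. They are printed from 8 bases before the start, 5′ to 3′, with the pyrimidine run in capitals, so that the first transcribed bases can be read.
EEF1A1, chr6:73521017-73521040, minus strand: tgaacgttCTTTTTCgcaacgggt
EEF2, chr19:3985448-3985471, minus strand: tcagcgttCTCTTCCgccgtcgtc
EEF1B2, chr2:206159887-206159910, plus strand: cttcgggtCCTTTTTCCTCTCTTC
EIF4B, chr12:53006448-53006471, plus strand: atccgggtCTTTTgcgttctcttt
EIF2S3, chrX:24054948-24054971, plus strand: tttccttcCTCTTTTggcaacatg
EIF3D, chr22:36529151-36529174, minus strand: catgtttcCTCTTTTCCTggtttc
EIF3F, chr11:7987329-7987352, plus strand: tccgcctcCTTCTTTCTCgacaag
EIF3K, chr19:38619180-38619203, plus strand: tccaccacCTCTTCCTgttcccgt
EIF3M, chr11:32583823-32583846, plus strand: ccagttccCTTTTCCggtcggcgt
The 9 genes had log2 fold changes from -0.39 for EIF3M to 0.08 for EIF3F, with a median of -0.14, 7 negative and 2 positive. The 21 other tested genes with a window had a median of -0.0061 and a range of -0.63 to 0.43. RNA counts do not measure how much these messages were translated.

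Levels between genes were compared as CPM per kilobase of the longest coding transcript in GENCODE 29, over all 6 libraries. EEF1A1 was highest at 2577 ± 183 CPM per kilobase (SD, n = 6 libraries of both groups), followed by EEF2 at 995 ± 82.7 and EIF1 at 450.2 ± 160. The libraries of EEF1A1 and EEF2 did not overlap, and neither did those of EEF2 and EIF1. EIF1 (332 to 714) and the next gene, EEF1B2 (344 to 501), did overlap. EIF4B (251 to 336) lay below EEF1B2 in every library and overlapped its own neighbours EIF3E (259 to 314) and EIF5A (244 to 342). With the median coding transcript length instead, the order EEF1A1, EEF2, EIF1 was the same, while EEF1B2 moved from rank 4 to 6 and EIF5 from 23 to 8, so ranks further down depend on the length used. Within eIF3, whose subunits are joined in 1 complex, levels ran from 280 for EIF3E down to 3.94 CPM per kilobase for EIF3C.

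**Figure D5:**
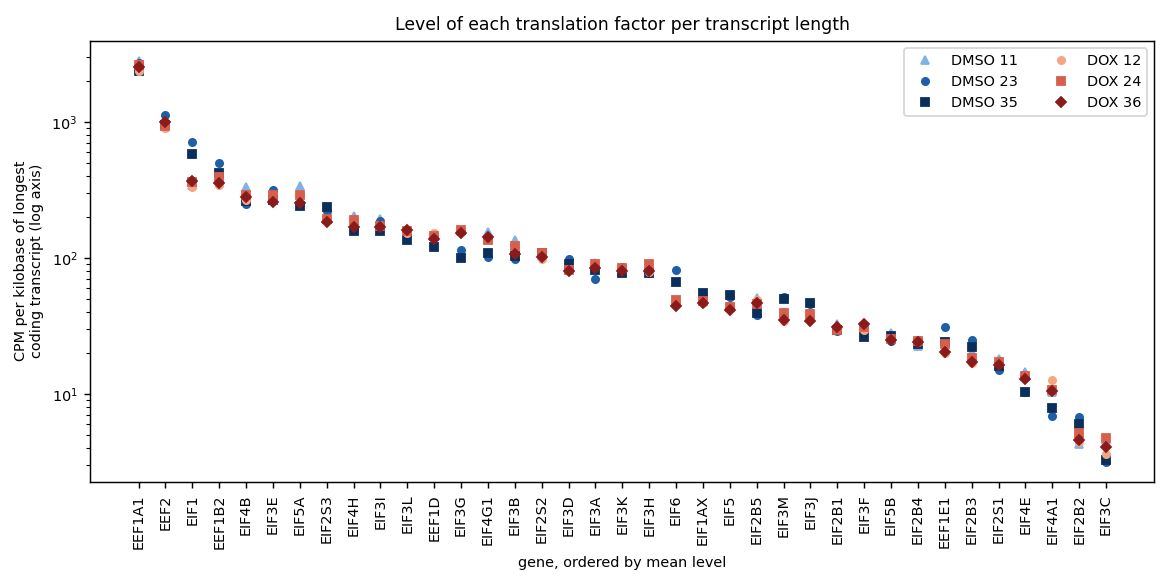
CPM per kilobase of the longest coding transcript (vertical, log axis) for the 37 tested translation factors in order of their mean, with 1 point per library. EEF1A1 lies at 2369 to 2823, EEF2 at 902 to 1132, and EIF3C is lowest at 3.20 to 4.79.

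The low values of 3 genes go with shared sequence or overlapping annotation. EEF1G, the scaffold subunit of the eEF1B complex, held 2, 0 and 0 counts in DMSO and 2, 1 and 0 counts in DOX, and 99.9% of its exonic bases are also exons of 1 other gene on the same strand in GENCODE 29. The row of that other gene held 40 to 51 counts per library. EIF4A1 shares 48.6% of its exonic bases with other genes, among them the readthrough gene SENP3-EIF4A1, which held 35 counts over all libraries against 2989 for EIF4A1. Its 12 pseudogene rows held 740 counts, 24.8% of its own number. EIF3C has a near-identical copy, EIF3CL, which held 150 counts over all libraries. How the authors' counting treated reads that fit more than 1 gene is not given in the sources used here, and its part in these levels was not tested. For EEF1A1, 40 pseudogene rows held 30246 counts, 1.53% of the gene's own 1981688.

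The other genes of the pathway were taken from a list of 48 genes ordered by role, of which 46 were tested. EIF4E3 and EEF1A2 were not, with few counts. EdgeR called 0 of the 46, with 18 at an unadjusted p under 0.05, 8 higher (17.4%) and 10 lower (21.7%), beside 11.2% and 14.8% of all genes. DESeq2 called 3 higher and 7 lower, beside the 3.08% and 6.89% of all genes given above. The median log2 fold change was -0.03. Without DMSO 11, edgeR called 15 higher and 15 lower, again beside 23.7% and 25.7% of all genes.

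Of the 10 regulators of EIF4E and EIF4A on the list, DESeq2 called 1 higher and 3 lower. PDCD4, an inhibitor of the helicase EIF4A1, stood at 126, 149.8 and 153 CPM in DMSO and at 92.5, 99.4 and 99.9 CPM in DOX, with no overlap (log2 fold change -0.56 ± 0.10, DESeq2 adjusted p = 0.000306, edgeR adjusted p = 0.0770). EIF4EBP1, which sequesters EIF4E, stood at 133, 176 and 157 CPM in DMSO and at 108, 116 and 115 CPM in DOX (-0.46 ± 0.11, DESeq2 adjusted p = 0.0104). Both inhibitors were lower in each DOX library, DMSO 11 being the nearest control. EIF4EBP3, another inhibitor of EIF4E, stood at 7.97, 14.5 and 9.80 CPM in DMSO and at 5.99, 8.06 and 5.77 CPM in DOX, where DMSO 11 and DOX 24 overlapped (-0.70 ± 0.23, DESeq2 adjusted p = 0.0408, and -0.43 without DMSO 23). In GENCODE 29, 73.4% of its exonic bases are also exons of the readthrough gene ANKHD1-EIF4EBP3, so its counts are uncertain. The inhibitors of EIF4E did not move together. EIF4EBP2, the most abundant of the EIF4EBP genes by mean CPM (286.5 in DMSO, 347 in DOX), had a positive log2 fold change with overlapping groups (0.28 ± 0.16, edgeR adjusted p = 0.295). Without DMSO 11 it was 0.50 (edgeR adjusted p = 7.7e-06). MKNK2, the kinase that phosphorylates EIF4E, stood at 159, 102 and 94.999 CPM in DMSO and at 181, 174 and 197 CPM in DOX (0.63 ± 0.18, DESeq2 adjusted p = 0.0248). Of the 14 initiation paralogs and accessory factors, DESeq2 called 2 higher and 1 lower. DDX3X, a helicase that helps unwind structured leaders, stood at 537, 362 and 350.2 CPM in DMSO and at 625, 649 and 617 CPM in DOX (0.60 ± 0.16, DESeq2 adjusted p = 0.0162). EIF4G3, a relative of EIF4G1, stood at 40.8, 33.0 and 34.9 CPM in DMSO and at 50.03, 48.6 and 50.6 CPM in DOX (0.46 ± 0.10, DESeq2 adjusted p = 0.0110). In MKNK2, DDX3X and EIF4G3 every DOX library was above every control, DMSO 11 included.

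The rest of the DESeq2 calls were lower in DOX. EEFSEC, the elongation factor for selenocysteine, stood at 48.8, 74.7 and 64.8 CPM in DMSO and at 41.4, 39.8 and 46.4 CPM in DOX (-0.56 ± 0.15). PAIP1, a partner of the poly(A)-binding protein, stood at 91.8, 109 and 97.1 CPM in DMSO and at 76.0, 82.2 and 79.4 CPM in DOX (-0.33 ± 0.09). EIF2A, an alternative initiation factor, stood at 151, 159.8 and 161 CPM in DMSO and at 125, 138 and 127 CPM in DOX (-0.28 ± 0.08). These 3 genes had no overlap of the groups. DPH5, which acts in making the diphthamide residue of EEF2, stood at 45.9, 94.8 and 70.7 CPM in DMSO and at 41.2, 49.0 and 45.7 CPM in DOX (-0.64 ± 0.23, and -0.37 without DMSO 23), so DMSO 11 lay among the DOX libraries. Given only the genes that pass the edgeR filter, DESeq2 called DHPS in place of DPH5. The edgeR adjusted p-values of the 10 DESeq2 calls ran from 0.0770 for PDCD4 to 0.136 for DPH5. Of the 6 eIF2 kinase and phosphatase genes, which set the stress block on eIF2B, edgeR and DESeq2 called 0, with 2 higher at an unadjusted edgeR p under 0.05, beside 11.2% of all genes. Without DMSO 11, where 23.7% of all genes were called higher and 25.7% lower, edgeR called EIF2AK1, EIF2AK2 and EIF2AK3 higher (log2 fold changes 0.28, 0.51 and 0.31) and PPP1R15A lower (-0.39). The 3 termination genes had log2 fold changes between -0.15 and -0.01.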

How the data were processed

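The authors deposited raw read counts per Ensembl gene for 6 libraries of RPMI-8402 cells, and a table of their own DESeq2 comparison. Per the submitters' processing notes, the genome build was hg19 and the tools were featureCounts, DESeq2 1.12.4 and STAR 2.5.2a; libraries were strand-specific and paired-end, per the labels' protocols. The annotation release and the strand and multiple-mapping settings of the counting are not given in the sources used here. Per the file headers, the authors' table gives p-values, log2 fold changes and their errors, a Wald score and a mean signal over libraries. Count columns name the group but carry no replicate number of the labels, so columns were assigned to groups only. The 92 spike-in rows held 0 counts and were left out.

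Genes were filtered with filterByExpr, scaled by TMM and tested with edgeR 4.0.16 in R 4.3.3 (robust quasi-likelihood F test, group as the only term, Benjamini-Hochberg over 15949 genes, threshold 0.05). The SE is the log2 fold change divided by the square root of F, and 95% intervals use the moderated degrees of freedom. CPM use TMM library sizes, and log2 CPM a prior count of 2. DESeq2 1.42.0 on the deposited counts and limma 3.58.1 (voom) were alternatives, with other scalings and filters and each library left out. The scripts were tested on simulated data. No 2 libraries agreed within sampling noise (mean chi-square per gene at least 4.59). Transcript length and exon overlap came from GENCODE 29 by Ensembl ID, which is of another build than the counts, so no coordinates of it are printed. Promoter windows came from RefSeq by symbol, and those on chromosome 8 were left out for the translation factors. Values in every library are given for the targeted genes, genes that edgeR or DESeq2 called, the 5 largest fold changes in each direction and the most abundant gene per length of each role; of the other pathway genes, for those called and the 3 largest with a mean of at least 10 CPM. The genes and lists were chosen with earlier results of these data known. Figures were drawn with matplotlib 3.10.9.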

Additional observations from a re-analysis of the deposited data

How the results depend on the processing

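The count of translation factors called was 0 with edgeR as reported, with limma voom, and with edgeR under 3 other scalings, a stricter filter on low counts, a non-robust fit and a threshold of 0.01, with 8 to 11 at an unadjusted p under 0.05. It was 4 with DESeq2, 3 with DESeq2 on the genes passing the edgeR filter (added after the data were seen) and 3 with no filter on low counts, in fits that called 1382 of 13869, 1383 of 14093 and 1761 of 31682 genes. For the other translation genes these counts were 0, 10, 10 and 9. With each library left out in turn, the counts ran from 0 to 21 and from 0 to 30, the highest values being those without DMSO 11; in the other 5 fits edgeR called 0 of all 16289 to 16346 genes tested, so their 0 says nothing particular about the translation factors, of which 3 to 5 had an unadjusted p under 0.05. The median log2 fold change of the translation factors ran from -0.05 to 0.0025 over the fits without 1 library and from -0.03 to 0.01 over the other settings, within the 0.06 by which libraries of a group vary (SD). EIF4B changed sign with upper quartile scaling (0.0141) and among the fits without 1 library (-0.10 to 0.12); the cause was not tested. No paired analysis was possible because the count columns carry none of the replicate numbers of the labels. Their own numbers run 11 and 12, 23 and 24, 35 and 36; no label says whether these mark pairs, and none was assumed. With 3 libraries a group, precision is set by their spread, which in the controls comes largely from DMSO 11.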
